A study of Mus musculus with 13 samples.

Results

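Expression was compared between mouse NUT carcinomas (mNCs) of the oral mucosa and of the pancreas in mice with intact Sox2. The members are the 8 tumors that the sample titles call wild-type, 4 oral and 4 pancreatic, of 13 tumors in the series, and the 5 Sox2 KO tumors were left out. The study introduced a floxed Sox2 allele into the NUT carcinoma translocator (NCT) model to ask whether Sox2 is needed for these tumors, and the comparison of sites within Sox2 WT describes how expression differed between tumors of the 2 origins. RNA was extracted from bulk tumor tissue, depleted of ribosomal RNA and sequenced as stranded libraries, 1 library per tumor. The oral tumors came from KRT14-Cre; NCT+/- mice and the pancreatic tumors from Pdx1-Cre; NCT+/- mice, so the labels give all 8 a single copy of NCT and no floxed Sox2. In this model Cre induces the translocation that creates the NUT fusion gene in the cells that express the driver, KRT14-Cre in basal cells of oral mucosa, skin and salivary gland and Pdx1-Cre in pancreatic progenitors. Site and Cre driver therefore cannot be told apart, ages are not given in the labels, and no label ties a tumor to an animal, so p-values measure the spread between these samples.

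NUT carcinoma is a poorly differentiated squamous carcinoma in which a fusion protein that holds the testis protein NUT keeps genes such as MYC and TP63 active. Stratified squamous epithelium is built from basal cells with KRT5 and KRT14 and suprabasal layers with other keratin pairs, whereas glandular and ductal epithelium carries KRT8, KRT18, KRT7 and KRT19. Homeobox, forkhead and T-box transcription factors mark where along the body an epithelium or its connective tissue arose, PDX1 and FOXA2 in posterior foregut and pancreas and DLX factors and TBX1 in the oral and pharyngeal region.

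Estimated counts totalled 29393925 to 40419965 in the oral and 40964171 to 46134532 in the pancreatic tumors, so that every pancreatic library was deeper, and protein-coding genes held 85.1% to 90.0% of them. By Xist and the Y-linked genes each site held 2 male and 2 female tumors. Site explained 54.0% of the variance of log2 CPM (counts scaled to library size) across the genes tested, the largest share that any of the 70 ways of dividing the 8 tumors into groups of 4 gave (one-sided exact permutation p = 0.0286, with its complement the smallest these divisions allow). Oral replicate 4 stood apart from the other oral tumors on the second component, at -106.2 against 8.96 to 58.3, and results that rest on it are given with and without it.

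**Figure D1:**
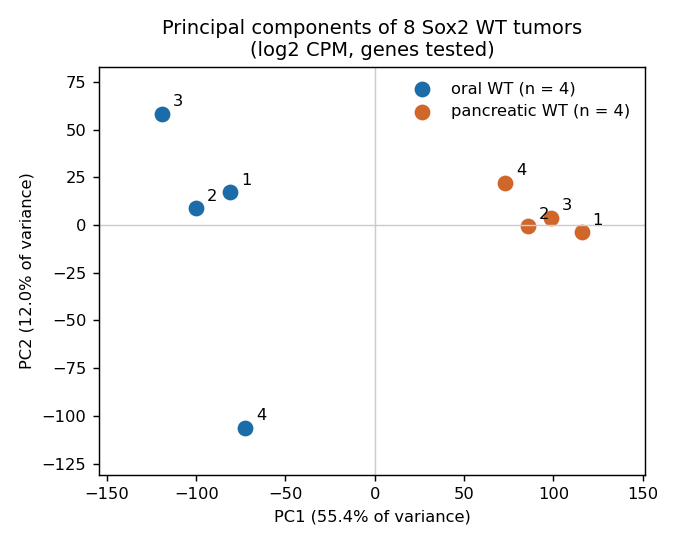
Each point is 1 Sox2 WT tumor, numbered by replicate, placed by the first and second principal component of log2 CPM over the genes tested (axis labels give the percent of variance). The first component (55.4%) parts oral tumors (-119.1 to -72.4) from pancreatic tumors (72.8 to 115.8), and the second (12.0%) sets oral replicate 4 apart.

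Of 23164 genes tested, 1677 were higher in pancreatic tumors (7.24%) and 2155 were higher in oral tumors (9.30%), together 16.5%. Genes were called DEGs at an adjusted p under 0.05 in edgeR's quasi-likelihood test with an absolute log2 fold change above 1, and fold changes are signed pancreatic minus oral throughout. The median log2 fold change of all genes tested was -0.0046. Among the genes tested, 28.0% had no overlap between the 4 oral and the 4 pancreatic values, 13.7% with all pancreatic tumors higher and 14.3% with all oral tumors higher. Of the 29 gene lists plotted, simple and ductal epithelium had the highest share of members called toward the pancreas and oral and craniofacial transcription factors the highest share toward the oral site.

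**Figure D2:**
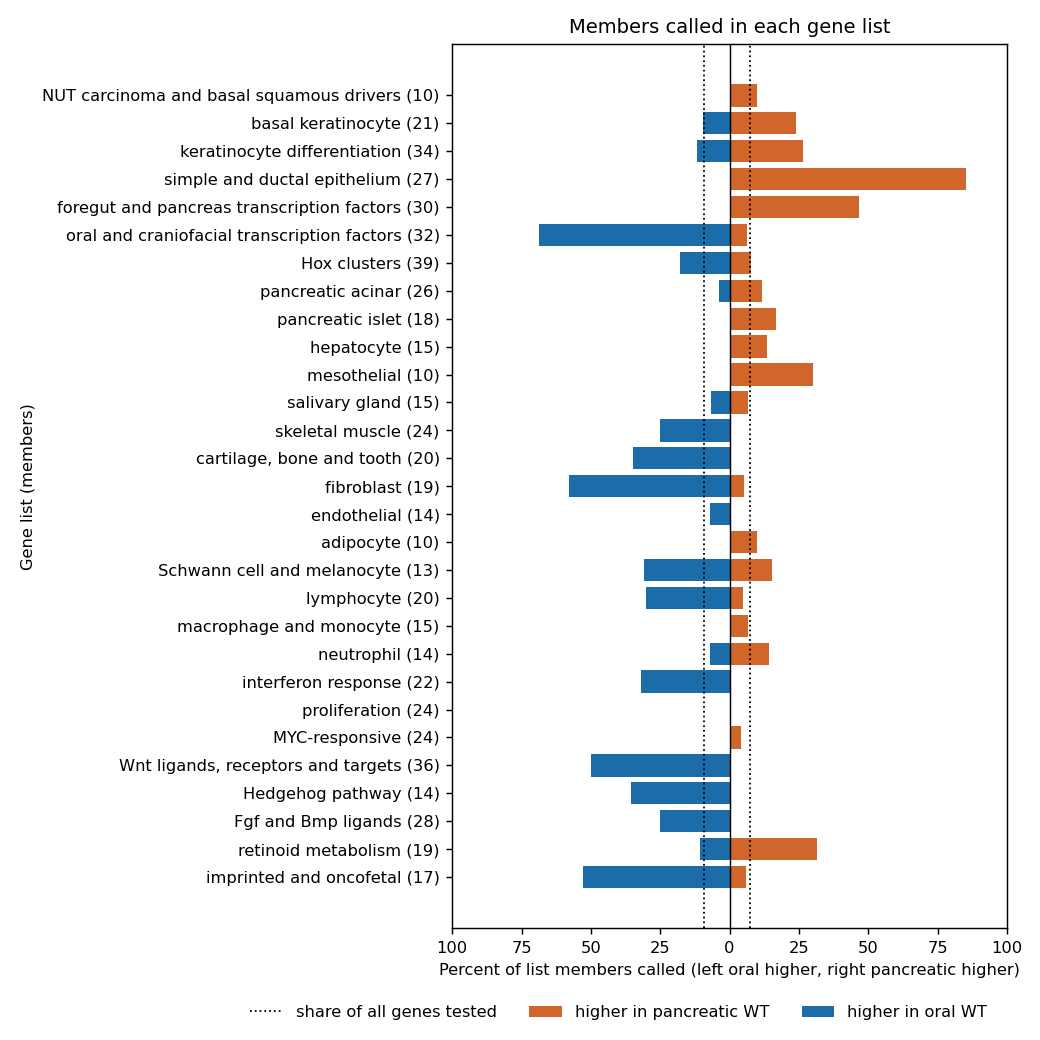
Bars give the percent of all members of each gene list (members in parentheses) that were called higher in pancreatic WT (right, orange) or in oral WT (left, blue), 4 tumors a site. Dotted lines mark the shares over all genes tested, 7.24% and 9.30%, and simple and ductal epithelium (23 of 27) and oral and craniofacial transcription factors (22 of 32) have the longest bars, and no member of the proliferation list was called.

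Nutm1 and Trp63 did not part the sites. Nutm1, a gene of the testis whose transcripts in these tumors include the fusion, stood at 49.8, 47.4, 61.8 and 56.3 CPM in oral replicates 1 to 4 and at 59.1, 60.04, 61.95 and 54.1 CPM in pancreatic replicates 1 to 4, overlapping ranges with a log2 fold change of 0.13 (SE 0.12, adjusted p = 0.482). Estimated counts per gene do not separate the fusion transcript from that of the unrearranged allele. Trp63, the transcription factor of basal squamous cells, measured 1037, 913, 724 and 794 CPM in oral and 638, 1008, 896 and 693 CPM in pancreatic tumors, with a log2 fold change of -0.10 (SE 0.19, adjusted p = 0.748).

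Myc and Sox2, both described as targets of the fusion protein, were the drivers that differed. Myc measured 177, 165, 118 and 187 CPM in oral and 258, 319, 244 and 311 CPM in pancreatic tumors, without overlap. Its log2 fold change of 0.81 passed the threshold on edgeR's adjusted p (adjusted p = 0.00967) and not that on the fold. Sox2, a factor of stratified epithelial progenitors, measured 8.98, 19.5, 17.8 and 15.5 CPM in oral and 28.99, 33.7, 33.7 and 33.5 CPM in pancreatic tumors, so that the lowest pancreatic tumor lay above the highest oral one. It was called at a log2 fold change of 1.07 (adjusted p = 0.00989), and the call was lost at 0.88 without oral replicate 1 and at 0.99 with DESeq2 and apeglm shrinkage. Sox2 was the only DEG among the 10 genes of the driver list, whose median log2 fold change was -0.0021. Of 24 proliferation genes, 0 were called by edgeR or by DESeq2. In edgeR, 8 had an unadjusted p under 0.05, all lower in pancreatic tumors, where 36.8% of all genes tested passed in either direction. All oral values lay above all pancreatic values in 3 of the 24, where 14.3% of all genes tested had this order. The median of the 24 was -0.38, and Mki67, the Ki-67 antigen, measured 428, 318, 389 and 369 CPM in oral and 421, 371, 373 and 274 CPM in pancreatic tumors. Of 24 MYC-responsive genes, 1 was called, Ldha, the lactate dehydrogenase subunit, at a log2 fold change of 1.12, and the median of that list was -0.097.

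Both sites expressed the keratins of basal squamous cells at a high level, and pancreatic tumors expressed more of some. Krt5, the type II basal keratin, measured 3413, 2216, 2155 and 2597 CPM in oral and 4098, 6696, 4980.0 and 6502 CPM in pancreatic tumors, without overlap, and rose by a log2 fold change of 1.10 (adjusted p = 0.00913). Without pancreatic replicate 4 it was 1.00 and no longer called. Krt14, its type I partner, whose promoter also drives Cre in the oral model, measured 2266, 798, 692 and 1718 CPM in oral and 1722, 4322, 3105 and 4145 CPM in pancreatic tumors. The sites overlapped because oral replicate 1 lay above pancreatic replicate 1, and the log2 fold change of 1.28 did not pass (adjusted p = 0.0652) but did without oral replicate 1 (1.63) or pancreatic replicate 1 (1.48), with DESeq2 (1.28, adjusted p = 0.0142), in the fit of all 13 tumors (1.28) and with sex as a covariate (1.44). Of 21 basal keratinocyte genes 5 were higher in pancreatic and 2 in oral tumors, with a median of 0.89, and the 7 calls became 4 without oral replicate 2.

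The clearest rise among basal genes was Itga6, the alpha 6 integrin of hemidesmosomes, at 367, 88.6, 106 and 220.4 CPM in oral and 1007, 1408, 1275 and 1448 CPM in pancreatic tumors, a log2 fold change of 2.72. Its hemidesmosome partners Col17a1 (1.32) and Itgb4 (1.17, 0.99 and not called without oral replicate 2) rose as well. Krt6a, a keratin of wounded and hyperproliferative epithelium, rose by 1.43, but it shares 51.3% of its 31-base sequences with other genes and lost its call in 5 of the 8 fits that left out 1 tumor. In the other direction Krt15, a basal keratin of resting and stem cell layers, measured 158, 216, 73.6 and 371 CPM in oral and 45.4, 21.9, 56.8 and 64.9 CPM in pancreatic tumors, without overlap, a log2 fold change of -2.12. Fgfr2, the receptor of keratinocyte growth factor, was lower in pancreatic tumors with a log2 fold change of -1.46, a call lost in 5 of those fits.

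Suprabasal keratins split by site. Krt4, a type II keratin of the suprabasal layers of internal stratified epithelium such as esophagus, measured 183, 492, 199 and 342 CPM in oral and 2603, 1986, 2934 and 1406 CPM in pancreatic tumors. Krt13, its type I partner, measured 301, 666, 246 and 201 CPM in oral and 1633, 1700.0, 2415 and 873 CPM in pancreatic tumors. In neither gene did the sites overlap, and their log2 fold changes were 2.88 (SE 0.38, adjusted p = 0.00165) and 2.23 (SE 0.44, adjusted p = 0.00843). Krt76, a type II keratin of hard palate and gingiva, ran the other way, at 167, 294, 249 and 70.7 CPM in oral and 5.58, 8.42, 17.7 and 6.11 CPM in pancreatic tumors, a log2 fold change of -4.37 (adjusted p = 0.00162).

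Krt2, a keratin of upper epidermal layers and palate, stood at 5.26 to 70.2 CPM in oral and at most 0.17 CPM in pancreatic tumors. Krt24 had 0 counts in all 4 pancreatic tumors, against 4.49, 2.11, 0.72 and 5.16 CPM in the oral ones, at least 41.2-fold higher in oral tumors against a floor of 3 counts per library. The epidermal pair Krt1 and Krt10 did not part the sites, since Krt1 measured 27.5, 133, 100.7 and 1726 CPM in oral and 57.2, 193, 109 and 205 CPM in pancreatic tumors (log2 fold change -1.82, adjusted p = 0.285), which turned to 0.69 without oral replicate 4. Flg, filaggrin of cornified epidermis, was likewise highest in oral replicate 4 at 858 CPM, where the other oral tumors measured 9.51 to 80.6 CPM.

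The cornified envelope genes Ppl and Evpl, encoding the plakin proteins periplakin and envoplakin, and Sprr3, a small proline-rich protein of esophageal epithelium, were higher in pancreatic tumors by 2.35, 2.33 and 2.84 on the log2 scale. Ppl lost its call without any 1 of oral replicates 1 and 2 and pancreatic replicates 1 and 3. Ivl, involucrin, measured 4.75, 2.84, 3.79 and 58.6 CPM in oral and 149, 78.2, 119 and 61.8 CPM in pancreatic tumors. These values did not overlap, and its log2 fold change of 2.54 did not pass (adjusted p = 0.096) but did without oral replicate 4 (4.74), with DESeq2 (2.54, adjusted p = 0.0454) and with sex as a covariate (3.27). Of 34 keratinocyte differentiation genes 9 were higher in pancreatic and 4 in oral tumors, median 0.88, and the 13 calls ranged from 8, without pancreatic replicate 1 or 3, to 23, without oral replicate 4.

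**Figure D3:**
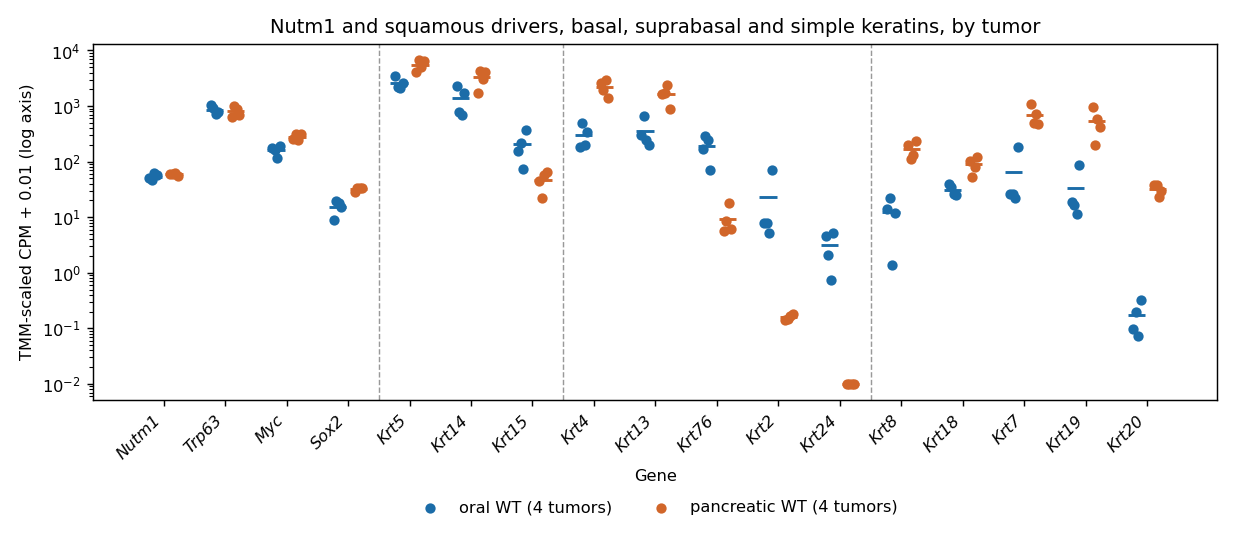
Points are TMM-scaled CPM (plus 0.01, log axis) of each of the 4 oral (blue) and 4 pancreatic (orange) Sox2 WT tumors and lines are group means, for Nutm1 and drivers, basal keratins, suprabasal keratins and simple keratins from left to right. Nutm1 and Trp63 overlap between sites, Krt4 and Krt13 are higher in every pancreatic tumor, Krt76, Krt2 and Krt24 in every oral tumor, and all 5 simple keratins in every pancreatic tumor.

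Pancreatic mNCs combined these squamous keratins with those of glandular and ductal epithelium. Of 27 simple and ductal epithelium genes, 23 were higher in pancreatic and 0 in oral tumors, and the median log2 fold change of the list was 4.01 against -0.0046 for all genes. Krt8 measured 13.8, 21.98, 1.35 and 11.99 CPM in oral and 200.1, 113, 131 and 234 CPM in pancreatic tumors (log2 fold change 3.79), with 32.3% of its 31-base sequences shared with other genes, and Krt18, its partner in simple epithelium, measured 39.03, 35.1, 26.6 and 25.2 CPM and 100.6, 52.9, 80.7 and 123 CPM (1.50). Krt19, a keratin of ducts, measured 18.4, 16.2, 11.2 and 87.8 CPM in oral and 956, 202, 579 and 419 CPM in pancreatic tumors (4.01, adjusted p = 0.00841). Krt7 followed, at 25.8, 26.6, 22.4 and 183 CPM in oral and 1090.1, 489.8, 723 and 485 CPM in pancreatic tumors (3.43). In Krt7 and Krt19 the highest oral value was that of replicate 4, and Krt7, like Krt15, lost its call when no count filter was applied. In bulk tissue, more cells of a type and more RNA per cell cannot be told apart.

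Krt20, a keratin of gut and urothelial surface cells, parted the sites most widely of these keratins, at 0.0876, 0.183, 0.0626 and 0.32 CPM in oral and 37.2, 38.1, 23.4 and 29.9 CPM in pancreatic tumors, a log2 fold change of 7.57 (SE 0.46, adjusted p = 0.000178). The start sites of Krt20 and of Krt76, which changed in opposite directions, are shown with the TATA box in capitals, each window running from 250 bases before to 50 bases after the RefSeq start (GRCm38.p6), 5′ to 3′ on the gene's own strand, here the minus strand of both. Krt20 lies at chr11:99438104-99438403 and Krt76 at chr15:101892871-101893170.
Krt20: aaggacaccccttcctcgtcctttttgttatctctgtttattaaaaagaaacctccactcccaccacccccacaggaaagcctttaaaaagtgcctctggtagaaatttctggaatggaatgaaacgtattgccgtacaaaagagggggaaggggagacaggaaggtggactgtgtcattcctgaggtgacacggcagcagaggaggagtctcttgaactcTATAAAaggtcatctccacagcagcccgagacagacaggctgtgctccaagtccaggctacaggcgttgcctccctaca
Krt76: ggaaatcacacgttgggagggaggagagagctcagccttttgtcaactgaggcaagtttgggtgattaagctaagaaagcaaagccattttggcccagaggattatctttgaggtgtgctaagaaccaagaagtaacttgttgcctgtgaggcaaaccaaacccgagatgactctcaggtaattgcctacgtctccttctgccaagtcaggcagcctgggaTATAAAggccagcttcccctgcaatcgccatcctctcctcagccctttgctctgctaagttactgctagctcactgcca
The letters TATAAA stand at position -29 from the start in both windows, so that a keratin of each direction held the same box at the same place. Anywhere in the window and on either strand, they occur in 13.6% of 32544 such windows of mouse genes. Among windows of protein-coding genes tested the share was 9.3%. It was 14.6% for genes called higher in pancreatic tumors and 10.1% for genes called higher in oral tumors.

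Several genes of gastric and intestinal epithelium, of which Tff2, Tff3, Muc6, Muc5ac and Cldn4 were chosen after their values were seen, were measured beside the simple keratins. Tff1 and Tff2 are trefoil peptides of stomach mucus and Tff3 is that of the intestine. Tff2 measured 0.0438, 0, 0 and 0.0457 CPM in oral and 128, 4.17, 34.5 and 4.06 CPM in pancreatic tumors. Tff3 had 0 counts in every oral tumor and 111, 2.46, 20.3 and 15.7 CPM in the pancreatic ones, at least 467-fold higher against 3 counts per library. Muc6, a gel-forming mucin of gastric glands and pancreatic ducts, measured 303, 0, 31.7 and 4.48 CPM in the pancreatic tumors against 1 count over the oral ones in total, and it was at 0 in pancreatic replicate 2, so the sites overlapped. The call of Muc6 was lost without oral replicate 3 and, like that of Tff3, when no count filter was applied. Tff2, Tff3 and Muc6 varied more among pancreatic tumors than the simple keratins did, with replicate 1 highest in each. The tight junction gene Cldn4 rose by 2.74, the intestinal cadherin Cdh17 by 6.35 and the plasma protein precursor Ambp by 6.31 on the log2 scale. Muc5ac, a mucin of gastric surface cells, overlapped between sites, at 2.50, 0.458, 0.438 and 8.80 CPM and 1.36, 0.923, 4.02 and 2.70 CPM.

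Several transcription factors of posterior foregut and pancreas were higher in pancreatic tumors as well. Pdx1 (chr5:147269959-147275848 on GRCm38), which specifies pancreas and whose promoter drives Cre in the pancreatic model, had 0 counts in all 4 oral tumors and 10.9, 3.66, 5.78 and 2.75 CPM in the pancreatic ones. Against 3 counts per library it was at least 72.2-fold higher in pancreatic tumors (adjusted p = 0.00148).

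Hnf4a, a nuclear receptor of liver, gut and pancreas, measured 21.9, 2.66, 7.94 and 5.48 CPM in pancreatic tumors and at most 0.228 CPM in oral ones, a log2 fold change of 6.79. Foxa2, a pioneer factor of endoderm, measured 4.07, 0.503, 2.22 and 1.53 CPM against 1 count over all oral tumors, a ratio of the scaled counts of 324 (95% interval from counting 57.8 to 12844). Gata6, which acts with Gata4 in pancreas formation, rose by 3.01, from 1.07, 2.08, 0.47 and 0.845 CPM to 11.7, 7.50, 11.6 and 5.13 CPM. Onecut2, of the Hnf6 family and a member of the ductal list, stood at 671, 38.2, 598 and 622 CPM in pancreatic replicates 1 to 4 and at most 1.46 CPM in oral tumors, and replicate 2 was far below the others. Sox9, of duct cells but also of hair follicle and cartilage, measured 218, 46.2, 65.6 and 124 CPM and 196, 719.8, 232 and 584 CPM, overlapping, and its call at 1.93 was lost in 6 of the 8 fits without 1 tumor.

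Of the 30 foregut and pancreas transcription factors, 24 had enough counts to be tested, 14 were higher in pancreatic and 0 in oral tumors, and the median of those tested was 2.39. The acinar factor Ptf1a had 0 counts in all 8 tumors, which limits it to 3 counts per library, and counting error only. Foxa1 did not overlap between sites, at 0.372, 4.00, 0.0313 and 5.35 CPM and 15.8, 6.46, 46.5 and 34.5 CPM, and was not called (3.40, adjusted p = 0.0637), but passed without oral replicate 4 (4.15) and with DESeq2 (3.39, adjusted p = 0.0256).

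In oral tumors a broad set of craniofacial transcription factors was high instead. Of 32 oral and craniofacial transcription factors, 22 were higher in oral and 2 in pancreatic tumors, median -5.40, and 24 calls were made whichever tumor was left out. Pitx1, a homeobox factor of oral epithelium and hindlimb, did not part the sites, at 129.5, 199, 197 and 61.4 CPM in oral and 115, 86.6, 119 and 63.2 CPM in pancreatic tumors (log2 fold change -0.61, adjusted p = 0.262).

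Tbx1, a factor of pharyngeal arches, palate and tooth, measured 15.9, 27.7, 34.2 and 22.3 CPM in oral and 0.47, 0.419, 0.386 and 0.754 CPM in pancreatic tumors (log2 fold change -5.61, adjusted p = 0.000178). The distal-less genes Dlx3, Dlx4 and Dlx5, which pattern the jaw, were lower in pancreatic tumors with log2 fold changes of -6.18, -6.80 and -7.05. Six2 and Irx4, homeobox genes of craniofacial tissue, measured 43.1, 35.9, 95.9 and 6.24 CPM and 7.32, 26.8, 15.8 and 12.9 CPM in oral tumors and no more than 0.196 and 0.336 CPM in pancreatic ones. Prrx1, a factor of jaw mesenchyme, differed less, by -2.83. Msx2, of tooth and skull, differed by -6.68.

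The exceptions were few. Hand2, which patterns the lower jaw but also forms heart and abdominal mesenchyme, was higher in pancreatic tumors, at 3.57, 0.867, 5.97 and 7.74 CPM against at most 0.0914 CPM in oral ones. Barx2, a homeobox gene of several epithelia, rose by 1.56, at 50.9, 97.6, 39.6 and 69.8 CPM in oral and 166, 237, 145 and 214 CPM in pancreatic tumors. Shox2, of jaw and limb mesenchyme, ran at 0.418, 45.2, 0.998 and 87.6 CPM in the pancreatic tumors, high in replicates 2 and 4 alone, with oral tumors between them at 2.83 to 7.30 CPM (log2 fold change 2.81, adjusted p = 0.171).

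**Figure D4:**
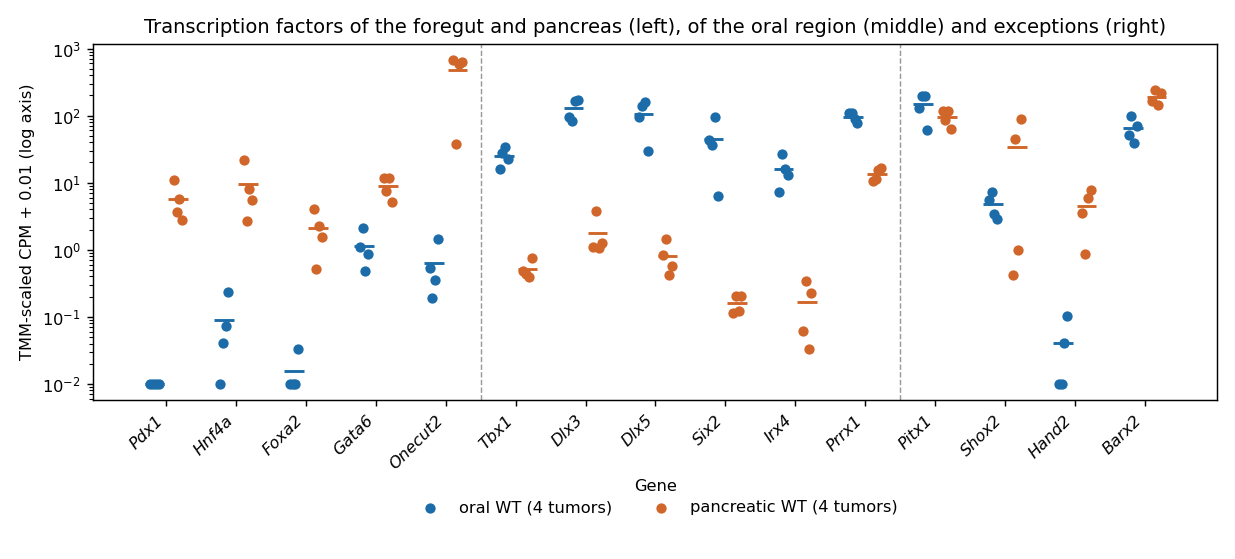
Points are TMM-scaled CPM (plus 0.01, log axis) of each of the 4 oral (blue) and 4 pancreatic (orange) Sox2 WT tumors, with group means as lines. The 5 factors at left are higher in every pancreatic tumor, the 6 in the middle in every oral tumor, and of the 4 at right Pitx1 and Shox2 overlap while Hand2 and Barx2 are higher in pancreatic tumors.

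Hox genes, which set position along trunk and limb, were low in sum, at 21.0 to 207 CPM in oral and 7.38 to 29.9 CPM in pancreatic tumors. Hoxd13, of the distal limb and genital region, measured 0.0219, 0.153, 2.97 and 82.5 CPM in oral replicates 1 to 4, and Hoxc8, of the trunk, 4.21, 70.5, 0.501 and 2.47 CPM. Each was thus high in 1 tumor, Hoxd13 in oral replicate 4 and Hoxc8 in oral replicate 2. In pancreatic tumors Hoxd13 had 1 count in all and Hoxc8 at most 0.196 CPM. Of 39 Hox genes, 23 were tested, 7 were higher in oral and 3 in pancreatic tumors (Hoxb2, Hoxb3 and Hoxb5, at most 1.22 CPM), and the 10 calls became 3 to 6 when any pancreatic tumor was left out. The median of those tested, -2.41, turned to 0.63 without oral replicate 4.

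Connective tissue genes were mostly higher in oral tumors. Of 19 fibroblast genes, 11 were higher in oral and 1 in pancreatic tumors, median -1.94, and their summed level was 10664 to 21520 CPM in oral and 2019 to 3731 CPM in pancreatic tumors. Dcn, decorin of collagen fibrils, measured 921, 805, 967 and 875 CPM in oral and 23.7, 30.3, 44.8 and 62.6 CPM in pancreatic tumors (log2 fold change -4.47, SE 0.31, adjusted p = 0.000267). Col1a1, the main chain of type I collagen, measured 3048, 7367, 3118 and 3321 CPM in oral and 445, 539, 776 and 794 CPM in pancreatic tumors (-2.72). Postn and Fap, periostin and the protease of activated fibroblasts, differed by -3.72 and -4.22. Other fibroblast genes did not follow, since Acta2, actin of smooth muscle and myofibroblasts, was higher in pancreatic tumors at 263, 509, 680.1 and 403 CPM against 233, 138, 127 and 97.6 CPM (1.64), and 7 of the 19 were called in neither direction.

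Bone and tooth genes went with the oral fibroblast genes. Ibsp, bone sialoprotein, measured 63.7, 237, 171 and 168 CPM in oral tumors, 0 in pancreatic replicates 1 to 3 and 0.146 CPM in replicate 4, a log2 fold change of -11.94. Sp7, the osteoblast factor osterix, measured 4.64, 11.6, 9.96 and 11.4 CPM in oral tumors and had 3 counts over the pancreatic ones, a ratio of the scaled counts of 485 (95% interval from counting 166 to 2354). Alpl, alkaline phosphatase of mineralizing cells, measured 46.2, 111, 55.8 and 39.2 CPM and 2.40, 1.34, 2.43 and 2.29 CPM. The enamel matrix gene Ambn had 0 counts in pancreatic tumors and 0.197, 1.89, 1.00 and 1.23 CPM in oral ones, at least 14.3-fold higher against 3 counts per library. Of 20 cartilage, bone and tooth genes, 7 were higher in oral and 0 in pancreatic tumors, and these 7 belong to bone or tooth, while Col2a1, the collagen of cartilage, was called in neither direction.

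Several skeletal muscle genes were far higher in oral replicate 4 than in the other tumors, and some were higher in every oral tumor. Ttn, titin, measured 1.07, 1.19, 2.25 and 325 CPM in oral and 0.104, 0.364, 0.544 and 0.17 CPM in pancreatic tumors, and its log2 fold change of -8.09 became -2.33 without that tumor and lost its call when any pancreatic tumor was left out (-8.59 to -7.84). Acta1, skeletal actin, measured 32.9 CPM there and at most 0.28 CPM in the other 7 tumors, and its value of -5.58 (not called) turned to 0.63. Of 24 muscle genes 6 were higher in oral tumors, and 2 or 3 when any pancreatic tumor was left out. The summed level of the list was 673 CPM in oral replicate 4, 26.6 to 42.6 CPM in the other oral tumors and 17.1 to 21.3 CPM in pancreatic tumors. The list median of -2.55 became -0.29 without oral replicate 4. Ryr1 measured 4.82, 6.59, 10.1 and 24.9 CPM in oral and 0.757, 1.59, 0.907 and 2.31 CPM in pancreatic tumors (-3.06). Its call held whichever tumor was left out. The part that muscle played in other differences was not tested beyond the values given without oral replicate 4.

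**Figure D5:**
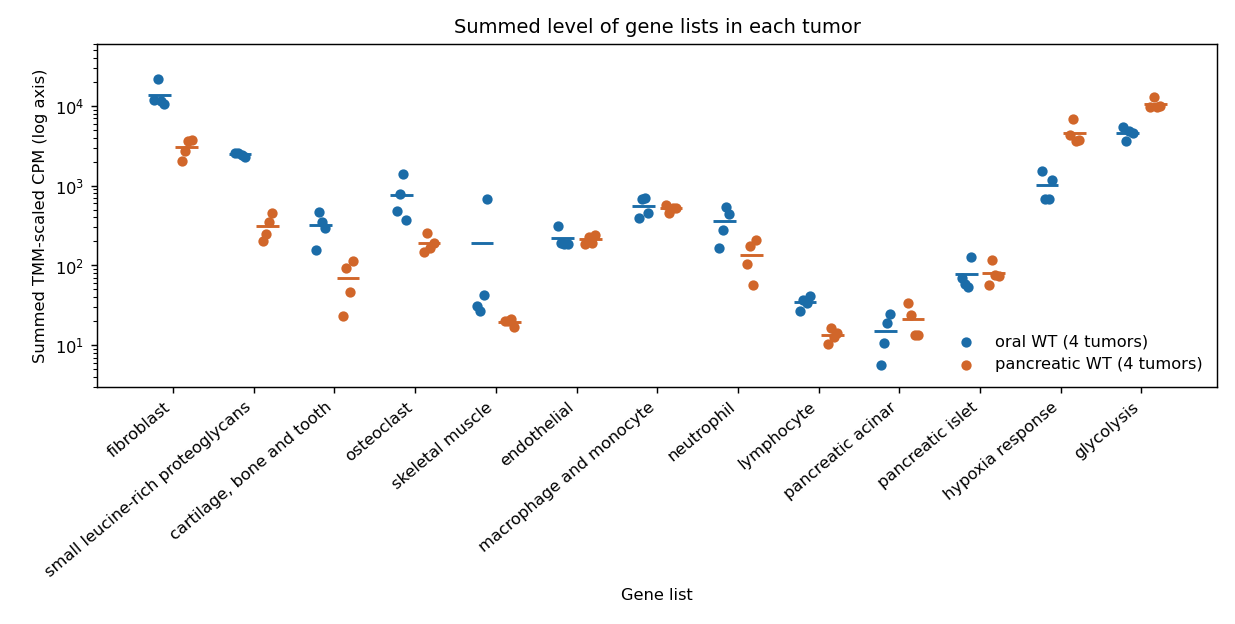
Points are the summed TMM-scaled CPM (log axis) of all members of a gene list in each of the 4 oral (blue) and 4 pancreatic (orange) Sox2 WT tumors, with group means as lines. Fibroblast genes and small leucine-rich proteoglycans are higher in all oral tumors, hypoxia response and glycolysis genes in all pancreatic tumors, skeletal muscle is high in oral replicate 4, and endothelial and macrophage sums overlap.

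Blood vessel and myeloid markers overlapped between sites in their sums, at 186 to 310 CPM in oral and 188 to 241 CPM in pancreatic tumors for 14 endothelial genes and at 395 to 694 CPM and 459 to 573 CPM for 15 macrophage and monocyte genes. Of the endothelial genes Tek, the angiopoietin receptor, alone was called (-1.41, not called in 4 of the 8 fits without 1 tumor). Of the macrophage genes Itgam, the integrin CD11b, alone was called (2.46), and it shares 68.1% of its 31-base sequences with other genes. Of 14 neutrophil genes, Csf3r and Cxcr2, receptors for growth factor and chemokine, were higher in pancreatic tumors by 1.92 and 1.55, the latter losing its call in 7 of those fits, and Mmp9, a gelatinase of neutrophils and osteoclasts, was lower (-4.91), at 136, 214, 502 and 65.98 CPM against 10.05, 6.66, 3.52 and 10.4 CPM.

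T cell genes were low at both sites. Cd4, the helper T cell receptor that mouse T cells and some myeloid cells carry, measured 6.02, 16.1, 19.4 and 15.9 CPM in oral and 1.10, 1.79, 2.63 and 2.94 CPM in pancreatic tumors (-2.76), and Lck, a T cell kinase, 2.29 to 3.38 CPM and 0.316 to 1.03 CPM (-2.36). Gzma, a granzyme of cytotoxic cells, was higher in pancreatic tumors at 2.43, 1.06, 2.43 and 2.34 CPM (3.15, 4.98 without oral replicate 4 and not called in 5 other fits). Of 20 lymphocyte genes 6 were higher in oral and 1 in pancreatic tumors, and the 7 calls fell to between 2 and 6 when 1 tumor was left out. Of 22 interferon response genes 7 were higher in oral tumors and 0 in pancreatic ones, among them Ifit1 and Ifit2, antiviral proteins (-2.27 and -2.46). Only 2 calls were left without pancreatic replicate 1, 3 or 4. The summed level of the list was 399.8, 323, 261 and 1058 CPM in oral and 199 to 347 CPM in pancreatic tumors, so the sites overlapped. The list median of -1.14 became -0.42 without oral replicate 4. Mbp, a myelin gene that leukocytes also transcribe, was higher in pancreatic tumors (1.98).

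The products of normal exocrine and endocrine pancreas given here were low in the pancreatic tumors. The digestive enzyme genes Cpa1 and Prss2, abundant in acinar cells, measured at most 0.475 and 0.755 CPM, and the summed level of 26 acinar genes was 13.4 to 33.8 CPM in pancreatic and 5.63 to 24.7 CPM in oral tumors. Of these 26 genes 16 were tested, and 3 were higher in pancreatic and 1 in oral tumors, together 25% of those tested. Over all genes tested, 7.24% were higher in pancreatic and 9.30% in oral tumors, together 16.5%. Reg1, a regeneration protein, was higher in pancreatic tumors at 9.47, 2.52, 4.02 and 4.45 CPM (6.23), Cela1, an elastase, was higher (3.35), and Sycn, of zymogen granules, was higher with 1 count over the oral tumors, a ratio of the scaled counts of 37.7 (95% interval from counting 6.39 to 1529). Sycn stayed at or below 0.419 CPM and lost its call without oral replicate 1 or 2. Ins2, insulin, measured 0, 8.08, 0 and 0.0487 CPM in the pancreatic tumors, present in replicate 2 and nearly absent elsewhere, and Iapp, the islet amyloid peptide, was highest in that tumor as well at 2.91 CPM. Slc2a2, the glucose transporter of beta cells and hepatocytes, measured 11.1, 0.168, 4.76 and 2.48 CPM and was lowest there. Of 18 islet genes 12 were tested, and 3 were higher in pancreatic and 0 in oral tumors, 25% against 16.5% of all genes tested. The 3 were Iapp, not called in 3 of the 8 fits without 1 tumor, Slc2a2 and Mafa (1.74, at 4.64 to 8.47 CPM). The summed level of the islet list overlapped, at 57.2 to 118 CPM in pancreatic and 53.5 to 128 CPM in oral tumors.

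Of the markers of liver, mesothelium, salivary gland and fat tested, 33.3%, 30%, 25% and 14.3% were called, against 16.5% of all genes tested. Of 15 hepatocyte genes 6 were tested and 2 were higher in pancreatic tumors. Ttr, transthyretin of liver and islet, measured 29.7, 0.419, 16.04 and 3.21 CPM in pancreatic tumors, 0 in oral replicates 1 to 3 and 0.228 CPM in oral replicate 4, a log2 fold change of 7.56 that became 11.89 without that tumor. Alb, albumin, stood at no more than 0.809 CPM. Of 10 mesothelial genes 3 were higher in pancreatic tumors, Wt1, a factor of mesothelium (log2 fold change 3.06, at 2.24, 3.69, 2.18 and 2.00 CPM), Upk3b and Lrrn4 (5.68, 8.81 without oral replicate 4). Of 15 salivary gland genes 8 were tested. Amy1, salivary amylase, was higher in oral tumors, at 1.03 CPM or less and with 37.3% of its 31-base sequences shared. Aqp5, a water channel of secretory cells, was higher in pancreatic tumors (2.39). The summed level of the salivary list was 1265 CPM in oral replicate 2, 21.0 to 70.2 CPM in the other oral tumors and 680 to 1100 CPM in pancreatic tumors. Aqp5 measured at most 40.3 CPM in pancreatic tumors, so members that were not called held most of that sum. The median log2 fold change of the salivary genes tested was 0.12. Among 10 adipocyte genes 7 were tested and Fabp4 alone was called (2.62), at 2540.4, 2926, 2212 and 1459.6 CPM in pancreatic tumors. It encodes a fatty acid carrier that macrophages and vessels also express, and Plin1, a coat protein of fat droplets, was not called.

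The Wnt genes called were all lower in pancreatic tumors. Axin2, a direct target of Wnt signaling, measured 13.03, 23.1, 13.8 and 23.2 CPM in oral and 2.74, 2.04, 3.18 and 3.33 CPM in pancreatic tumors (log2 fold change -2.69, SE 0.28, adjusted p = 0.000721). Lgr5, a target and R-spondin receptor, measured 2.41, 1.37, 0.97 and 3.68 CPM and 0.13, 0.503, 0.34 and 0.389 CPM (-2.62). The ligands Wnt6 and Wnt2b had log2 fold changes of -3.47 and -4.04, the receptor Fzd4 one of -1.20, and the secreted antagonists Wif1 and Dkk3 of -3.96 and -2.20, Wif1 losing its call without pancreatic replicate 1. The ligands, receptors, targets and antagonists called thus shared a direction. Of 36 Wnt genes 18 were higher in oral and 0 in pancreatic tumors, median -1.17, with 11 called without pancreatic replicate 1 or 3.

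Hedgehog transcription factors went the same way. Gli1, a target as well as an effector, measured 1.69, 5.19, 2.10 and 2.92 CPM in oral and 0.418, 0.559, 0.318 and 0.681 CPM in pancreatic tumors (-2.58). Gli2 and Gli3 differed by -2.20 and -3.66, and the co-receptor Boc by -1.38. Of 14 genes of the pathway, 5 were higher in oral and 0 in pancreatic tumors, median -0.89, and the ligand Shh was not called. Of 28 genes listed as Fgf and Bmp ligands, 23 were tested and 7 were higher in oral tumors. Among these were Bmp3, an antagonist of bone formation, at 14.8, 103, 18.7 and 25.8 CPM against 1.01 to 1.58 CPM (-5.09), and Bmp5 (-2.11). Bmp1, also among the 7 (-1.46), encodes a protease and not a ligand. Bmp2, highest in oral replicate 3 at 93.6 CPM, was called at -3.08, and at -1.42 without that tumor, but the call was lost when any pancreatic tumor was left out (-3.27 to -2.98).

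Retinoid genes were called in both directions. Lrat, which stores retinol as esters, measured 6.64, 1.50, 0.47 and 13.1 CPM in oral and 145, 139, 236 and 121 CPM in pancreatic tumors (log2 fold change 4.87, adjusted p = 0.00648). The cellular retinol carrier Rbp2 rose by 2.55. Of the enzymes that make retinaldehyde and retinoic acid, Rdh10 rose by 1.27, Aldh1a2 by 1.23 and Aldh1a3 by 2.08, the last not called in 4 of the 8 fits without 1 tumor. The receptor Rarb, itself a retinoic acid target, was lower (-1.62), not called in 5 of those fits. Of 19 retinoid genes, 18 were tested, 6 were higher in pancreatic and 2 in oral tumors, median 0.43, and 10 were not called.

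Of the imprinted and oncofetal genes tested, more were higher in oral tumors. Igf2, the fetal insulin-like growth factor, measured 4702, 7525, 10242 and 6505 CPM in oral and 876, 1045, 1175 and 752 CPM in pancreatic tumors, a log2 fold change of -2.91 (adjusted p = 0.000562), with 61.9% of its 31-base sequences shared with other genes. The neighboring H19, a non-coding RNA, measured 4608, 5812, 14162 and 12237 CPM and 1773, 2189.7, 2068 and 1352 CPM (-2.32). Mest, an imprinted hydrolase of mesoderm, measured 482, 298, 1348 and 811 CPM and 12.8, 14.8, 11.98 and 26.3 CPM (-5.48). Peg3 and Cdkn1c, the latter a cell cycle inhibitor, differed by -3.62 and -3.00. Of the RNA-binding proteins that bind Igf2 mRNA, Igf2bp2 was higher in pancreatic tumors at 84.4, 61.8, 29.3 and 28.4 CPM against 3.35, 5.40, 10.9 and 6.03 CPM (2.99), and Igf2bp1 was higher in oral tumors at 2.52, 20.4, 76.9 and 71.8 CPM against 0.835, 1.03, 2.74 and 2.14 CPM (-4.66), with oral replicate 1 inside the pancreatic range. Of 17 imprinted and oncofetal genes 15 were tested, 9 were higher in oral and 1 in pancreatic tumors, median -2.66. Several of these genes are known from fibroblasts and mesenchyme, whose markers moved the same way (11 of 19 fibroblast genes higher in oral tumors), and their part in the difference was not tested.

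The protein-coding genes with the smallest adjusted p and no overlap between sites, 10 in each direction, held further single genes. Toward the oral site they included Gm10184, at 71.8, 57.02, 70.03 and 57.3 CPM and 0 counts in pancreatic tumors, which shares 99.0% of its 31-base sequences with other genes, Fras1, an extracellular matrix protein beneath epithelia (-5.15), Bcl11a, a zinc finger repressor (426, 582, 395 and 433 CPM and 76.6, 84.7, 71.95 and 84.2 CPM), and Grik5, a kainate receptor subunit whose oral values spread little, at 22.95, 23.3, 23.3 and 24.4 CPM against 4.72, 4.11, 4.58 and 4.92 CPM. Toward the pancreas they included Krt20 and Gsto1, a glutathione transferase, at 178, 217, 178 and 229.6 CPM and 2384, 1459, 2302 and 1639 CPM (3.28), with Appl2, an endosomal adaptor (1.79), Rnf186, a ubiquitin ligase of colon epithelium (5.09, 3.97, 3.36 and 3.29 CPM against at most 0.0313 CPM), and St3gal4, a sialyltransferase (2.42). Others were Tbx1, Dlx4, Dcn, Prrx1 and Gm49425 toward the oral site and Cntnap5b, Cstb, Mboat1 and Osbpl3 toward the pancreas.

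By level, the most abundant protein-coding genes called were Igf2, Col1a1, Col3a1, Col1a2 and Lars2 at the oral site and Ahnak, Krt5, Dsp, Krt6a and Actg1 in the pancreas. Ahnak, a giant scaffold protein beneath the membrane, measured 1529, 1661, 921 and 2597 CPM in oral and 6944, 5367, 6719 and 4284 CPM in pancreatic tumors (1.80). Dsp, desmoplakin of desmosomes, measured 1575, 1025, 759.8 and 2358 CPM and 3351, 4588, 3378 and 3145 CPM (1.34, not called without oral replicate 2 or pancreatic replicate 2). Actg1, a cytoplasmic actin that shares 40.2% of its 31-base sequences, was 0.98 and not called without pancreatic replicate 2, and Lars2, a mitochondrial tRNA ligase, measured 1494, 589, 1343 and 4949.9 CPM in oral tumors and 510.2, 463, 310.3 and 571 CPM in pancreatic tumors, and its log2 fold change of -2.18 became -1.30 without oral replicate 4. Its call was lost when any pancreatic tumor was left out (-2.31 to -2.02), with no count filter and in the fit of all 13 tumors.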

How the data were processed

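Ribosomal RNA-depleted, stranded total RNA libraries of 8 Sox2 WT mNC tumors were compared, 4 oral and 4 pancreatic, grouped by the sample titles. Per the labels and the study's methods, reads were trimmed with Trim Galore (0.6.10), checked with FastQC (0.12.1) and quantified with kallisto (0.50.0) on GENCODE transcripts of GRCm38, and transcript values were summed to genes with tximport. The deposited table holds these estimated counts per gene, made by the authors and not normalized, of which 27.3% were not whole. They were rounded. Of 56085 genes listed, 55332 had values, and the 23164 that reached 10 counts in 2 or more tumors were tested with edgeR's quasi-likelihood test (4.0.16, R 4.3.3, robust dispersions, TMM scaling), with Benjamini-Hochberg adjustment over all of them, signed pancreatic minus oral. CPM are TMM-scaled. Estimated counts split reads between near-identical genes, so the share of 31-base sequences that a gene shares with others is given where it is large. Totals per library are given in the text, and intervals and floors cover counting error only. The code was tested on simulated data.

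Named genes were the drivers and defining keratins and site factors, up to 5 called members of each list and direction by adjusted p, the 10 protein-coding genes a direction with the smallest adjusted p among called genes without overlap, the 5 most abundant called protein-coding genes a direction, and defining markers of muscle and pancreas. Another 48 were chosen after their values were seen, among them Krt1, Krt7, Krt10, Flg, Ivl, Ppl, Shox2, Gata6, Foxa1, Sox9, Dlx3, Dlx5, Six2, Irx4, Msx2, Tff2, Tff3, Muc6, Muc5ac, Cldn4, Mki67, Bmp2, Wif1, Lgr5, Igf2bp1 and Aldh1a3. Some genes that the rule names are not reported here. Members and lists were chosen with earlier results of these data known. Alternatives were DESeq2 (1.42.0) with and without apeglm (1.24.0), DESeq2 size factors, other count filters, no robust dispersions, a replicate block, all 13 tumors, protein-coding genes, sex as a covariate, thinned counts and each tumor left out. Promoter windows and gene positions are from RefSeq and GENCODE on GRCm38.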

Additional observations from a re-analysis of the deposited data

Results flagged for a closer look

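A tumor stood far from the other 3 of its site, by the gap to its nearest neighbor as a share of the whole range, in 34 of 392 groups of named genes and sites tested. Chance alone passes this mark in about 1 in 20 groups of normally distributed values. That rate does not apply to a gap of 1, which any count gives where the other 3 tumors of the site had 0. By tumor, 17 of the 34 were oral replicate 4 and 8 were pancreatic replicate 2. In oral replicate 4 the epithelial and muscle genes Actn3 (0.869, 1.62 CPM), Ivl (0.831, 58.6 CPM), Krt2 (0.849, 70.2 CPM), Krt7 (0.918, 183 CPM) and Ttn (0.873, 325 CPM) and the receptor Cxcr2 (0.891, 9.23 CPM) lay above the other oral tumors, each given with its gap and its level. In the same tumor Hoxb3 (0.886, 0.114 CPM), Itgb3 (0.864, 10.5 CPM), Odam (0.924, 11.7 CPM), Rbp4 (0.899, 2.47 CPM), S100b (0.941, 0.48 CPM) and Wnt2b (0.833, 0.731 CPM) lay below them. Foregut, liver and mesothelial genes with 0 counts in oral replicates 1 to 3 had a few there, a gap of 1 by construction, namely Alb (0.0228 CPM), Foxa2 (0.0228 CPM), Lrrn4 (0.0914 CPM), Sycn (0.0228 CPM), Ttr (0.228 CPM).

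Pancreatic replicate 2 was highest of its site in Aldoa (0.902, 1433 CPM), Cxcl9 (0.912, 1.43 CPM), Dlx3 (0.867, 3.78 CPM), Hoxd13 (1, 0.028 CPM) and Ins2 (0.868, 8.08 CPM) and lowest in Alpl (0.899, 1.34 CPM), Gzma (0.953, 1.06 CPM) and Onecut2 (0.960, 38.2 CPM). Oral replicate 1 was lowest in Cd4 (0.830, 6.02 CPM) and Sp7 (0.830, 4.64 CPM). Oral replicate 2 was highest in Col1a1 (0.903, 7367 CPM) and Col1a2 (0.915, 4674 CPM). Oral replicate 3 was highest in Muc6 (1, 0.0313 CPM). Pancreatic replicate 1 was lowest in Sox2 (0.947, 29 CPM). Pancreatic replicate 4 was highest in Ibsp (1, 0.146 CPM) and Odam (1, 0.414 CPM) and lowest in Rbp2 (0.836, 55.9 CPM).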

How the results depend on the processing

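The higher-in-pancreas count of 1677 and the higher-in-oral count of 2155 fell to 1086 and 1345 when at least 10 counts were required in every tumor, a filter that removes genes near 0 at a site. They ranged from 1283 to 2023 and from 1492 to 2079 when 1 tumor was left out, and DESeq2 gave 2006 and 2481. Tumor numbers did not pair the sites (correlations of same-numbered deviations between -0.091 and 0.027), and a replicate block gave 1360 and 1629. Of 177 called genes named, 129 were called under every alternative that gave an adjusted p, and 0 changed direction. Among genes given in the text, calls of Aldh1a3, Bmp2, Cxcl9, Cxcr2, Dsg1a, Fgfr2, Hoxc8, Hoxd13, Krt6a, Krt7, Krt15, Lars2, Muc6, Ppl, Sox9, Tff3, Ttn and Wif1 were lost with no count filter, those of Bmp2, Cxcl9, Cxcr2, Itgb4, Ppl, Rarb, S100b, Sox9, Sycn, Ttn and Wif1 with the replicate block, those of Bmp2, Fgfr2 and Ttn with sex as a covariate, those of Aldh1a2, Lars2, Rbp4 and Sycn in the fit of all 13 tumors and those of Odam and Sox2 with apeglm, while Acta1 was called in the fit of all 13 tumors (-5.59). The variance that site explained ranged from 52.8% to 72.2%. Among values not called, Flg turned to 0.20 and Muc5ac to 0.25 with the replicate block, and Muc5ac to 0.21 with sex as a covariate. Leaving out 1 tumor, the values not called ran from -2.16 to 1.25 for Flg, from -0.88 to 0.97 for Muc5ac, from -6.00 to 0.63 for Acta1, from -2.22 to 0.69 for Krt1, from -1.39 to 0.17 for Krt10 and from -2.93 to 0.63 for the Hox median, each highest without oral replicate 4. Mki67 ran from -0.17 to 0.025, above 0 at 0.0020 without oral replicate 1 and at 0.025 without pancreatic replicate 4, and the mesothelial median was -0.30 with the filter on every tumor. For these reversals the cause was not tested, except that leaving out oral replicate 4 removes the highest value of Flg, Muc5ac, Acta1, Krt1 and Krt10. Genes under about 1 CPM rest on few counts in these libraries. With 4 tumors a site, exact permutation of a single value cannot go below p = 0.0286.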

Other observations

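A set of lists was written after the values were seen, so the counts in this paragraph and the ones that follow it describe those choices and test nothing. Glycolysis and hypoxia response genes were higher in pancreatic tumors. Hypoxia-inducible factors, which oxygen-dependent hydroxylation otherwise destroys, drive these genes in cells short of oxygen. Of 16 hypoxia response genes, 12 were higher in pancreatic and 0 in oral tumors (median 1.78), where 7.24% of all genes tested were higher in pancreatic tumors, and their summed level was 674 to 1547 CPM in oral and 3591 to 6821 CPM in pancreatic tumors. Car9, a carbonic anhydrase, measured 14.1, 1.59, 3.76 and 2.47 CPM in oral and 62.9, 126, 73.4 and 64.3 CPM in pancreatic tumors (3.89). Ndrg1, a stress protein, measured 335, 87.6, 47.6 and 114 CPM and 1097, 1840.5, 890.1 and 993 CPM (3.04). Slc2a1, the glucose transporter GLUT1, measured 403, 309.6, 109 and 423 CPM and 1602, 1429, 1215 and 737 CPM (2.00). In each of these genes the lowest pancreatic tumor lay above the highest oral tumor. Of 19 glycolysis genes 13 were higher in pancreatic and 0 in oral tumors, median 1.23, among them Aldoa, an aldolase (1.46).

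The windows around the start of 4 of these genes are shown because the genes moved together, with the letters ACGTG, the core of the hypoxia response element, in capitals on either strand (CACGT on the printed strand is the core on the other one). They are RefSeq windows on GRCm38.p6, 250 bases before to 50 after the start, 5′ to 3′ on the gene's strand, for Ldha at chr7:46845554-46845853, Slc2a1 at chr4:119108495-119108794, Pgk1 at chrX:106186850-106187149 and Car9 at chr4:43506776-43507075, all on the plus strand.
Ldha: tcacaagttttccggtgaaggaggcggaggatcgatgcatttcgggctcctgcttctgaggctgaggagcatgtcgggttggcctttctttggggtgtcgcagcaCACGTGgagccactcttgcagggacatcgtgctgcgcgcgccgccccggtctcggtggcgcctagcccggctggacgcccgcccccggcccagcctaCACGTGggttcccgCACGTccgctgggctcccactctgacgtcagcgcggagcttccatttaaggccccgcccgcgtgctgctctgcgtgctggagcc
Slc2a1: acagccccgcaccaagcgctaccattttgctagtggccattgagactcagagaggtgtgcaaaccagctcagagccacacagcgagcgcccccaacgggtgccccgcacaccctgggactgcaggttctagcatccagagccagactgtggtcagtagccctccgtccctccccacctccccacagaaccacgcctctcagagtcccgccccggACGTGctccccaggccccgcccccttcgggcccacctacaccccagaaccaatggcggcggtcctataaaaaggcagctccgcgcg
Pgk1: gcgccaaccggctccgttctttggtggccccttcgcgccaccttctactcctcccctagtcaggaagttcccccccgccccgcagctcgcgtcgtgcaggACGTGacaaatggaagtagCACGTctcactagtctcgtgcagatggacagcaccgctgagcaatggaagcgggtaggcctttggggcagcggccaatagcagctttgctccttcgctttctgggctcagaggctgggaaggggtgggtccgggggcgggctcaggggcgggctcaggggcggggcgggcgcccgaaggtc
Car9: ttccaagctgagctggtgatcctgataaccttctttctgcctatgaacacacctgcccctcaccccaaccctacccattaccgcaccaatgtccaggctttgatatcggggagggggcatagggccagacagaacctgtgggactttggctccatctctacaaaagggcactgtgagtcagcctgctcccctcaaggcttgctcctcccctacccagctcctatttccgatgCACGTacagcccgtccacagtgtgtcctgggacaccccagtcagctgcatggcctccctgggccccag
The core stood in a window of 10 of the 13 hypoxia response genes and 13 of the 19 glycolysis genes that have a window, and in a window of 26.6% of the 12835 protein-coding genes tested that have one. Counted by window, it stood in 22.4% of those of all genes called higher in pancreatic tumors. The share was 21.2% for genes called higher in oral tumors and 23.2% for all protein-coding genes tested. In Ldha it lies at positions -145, -144, -48, -47 and -34, and the pairs are the palindrome CACGTG, an E-box that MYC and other factors also bind. A match is a description of the letters and not a bound site.

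Small leucine-rich proteoglycans, which sit on collagen fibrils, were higher in oral tumors in 9 of 12 members (median -4.77), where 9.30% of all genes tested were. Epyc, epiphycan, had 0 counts in pancreatic tumors and 54.6, 94.96, 171 and 186 CPM in oral ones, at least 1669-fold higher against 3 counts per library, and Fmod, fibromodulin, measured 220.4, 182, 235 and 138 CPM and 2.19, 7.94, 5.49 and 7.28 CPM. Of 11 osteoclast genes, 7 were higher in oral tumors, with Ctsk, cathepsin K, at 83.2, 239, 340.2 and 60.5 CPM against 2.14, 1.57, 4.40 and 10.1 CPM (-5.31). Odam, a protein of ameloblasts and of the epithelium that attaches gum to tooth, measured 74.3, 64.6, 65.2 and 11.7 CPM in oral tumors and was at 0 in pancreatic replicates 1 to 3. Of 22 hair-type keratins found, 12 were higher in oral tumors, with Krt71, of the inner root sheath, at 56.3, 69.4, 64.7 and 131 CPM against 0.574, 3.75, 0.953 and 2.99 CPM. In bulk tissue these levels do not say which cells carried them.

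Of 19 mucin and Clca genes found, 11 were higher in pancreatic tumors and 1 in oral tumors, with a median of 4.60, or 3.79 with genes at 0 in a site set to their bounds. Muc4, a membrane mucin of pancreatic cancers, measured 0.942, 4.40, 0.25 and 0.663 CPM in oral and 146, 121, 76.8 and 47.3 CPM in pancreatic tumors (5.98). Psca, prostate stem cell antigen, a surface protein of several epithelia, measured 27.5, 46.5, 16.1 and 58.05 CPM and 1739.9, 1009, 948 and 471 CPM (4.81). Of 16 desmosome genes, 6 were higher in pancreatic and 3 in oral tumors, 9 calls that became 5 without oral replicate 2 or pancreatic replicate 3. Dsg3, desmoglein 3 of basal layers, rose by 1.26, and Dsg1a, of upper epidermal layers, was lower (-1.49), with 41.4% of its 31-base sequences shared and the call lost in 5 of the 8 fits without 1 tumor.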
